A study of Mus musculus with 4 samples.

Results

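Plexins are cell-surface receptors that bind semaphorins, a family of secreted, transmembrane and lipid-anchored guidance proteins, and that act through small GTPases on the actin cytoskeleton and on integrin adhesion. In the immune system this pathway is known for its part in lymphocyte migration and in contacts between B cells, T cells and dendritic cells. Described here are 10 listed genes in JQ1-resistant and JQ1-sensitive lymphoma cells: the plexin receptors Plxnc1, Plxna1, Plxna3, Plxnb2 and Plxnd1, the semaphorins Sema7a, Sema4a, Sema4b and Sema4d, and the co-receptor Nrp1. They were picked by name, with the difference between the lines already known and with Plxnc1 as the gene of interest, so their levels and changes are given as a description with no p-value. How many of them met the rule used for all genes is counted once, beside the share of all genes, and nothing is read from it. For Plxna3 and Plxna1, some runs in which the call changed are also named. Of the 10, 9 were found by their Ensembl identifiers among the 16591 genes of the count table, and all 9 passed the filter on low counts that left 11945 genes. Nrp1 was not analysed here.

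The resistant line, JQ1R, and the sensitive line, JQ1S, are C57BL/6 mouse Eμ-Myc lymphoma lines with 2 libraries each. Every library came from early-passage cells, no drug before harvest is named, and both lines carry the Eμ-Myc transgene, in which an immunoglobulin heavy-chain enhancer drives Myc in B-lineage cells. JQ1 inhibits the BET bromodomain proteins. Each group is a single line, so the effect of resistance and of whatever else sets these lines apart cannot be separated, and the labels do not say that the libraries came from separate cultures.

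Total counts were 10928239 and 11809635 in JQ1R and 13048103 and 10346007 in JQ1S. The B-cell markers Cd79a, Cd79b, Pax5, Ebf1, Ptprc, Cd22 and Blnk were expressed in every library. Cd79a, a chain of the B-cell receptor, stood at 453 and 427 CPM (counts scaled to the size of the library) in JQ1R and at 425 and 452 CPM in JQ1S, and the B-lineage factor Pax5 at 105 and 102 CPM in JQ1R and 102 and 112 CPM in JQ1S. Of the 7, Cd22, a B-cell inhibitory receptor, rose, at 172 and 168 CPM in JQ1R against 136 and 144 CPM in JQ1S (log2 change 0.28 ± 0.06, edgeR adjusted p = 0.0129, DESeq2 0.0431). It did not pass in edgeR without JQ1R replicate 1 (0.26, adjusted p = 0.215) or without JQ1R replicate 2 (0.30, adjusted p = 0.110). The summed level was 0.505 to 0.641 CPM in JQ1R and 0.540 to 0.777 CPM in JQ1S for 2 measured T-cell markers of 8, and 5.31 to 5.56 CPM in JQ1R and 3.85 to 4.47 CPM in JQ1S for 5 measured myeloid markers of 8, with Csf1r, Cd14 and Mpo at 5 counts or fewer in each library. It was 89.0 to 90.3 CPM in JQ1R and 88.6 to 100.3 CPM in JQ1S for 2 measured endothelial and fibroblast markers of 8, nearly all of it Pecam1, which B cells also express. For erythroid and NK cells 1 marker of 4 each was measured, Klf1 at 4 counts in every library and Klrb1c at 3 to 11. The part of other cell types in the results below was not tested.

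The promoters of 3 of these genes are shown because they set the receptor that differed most beside the plexin that was abundant in both lines and the lipid-anchored ligand of PLXNC1. Each holds 250 bases before and 50 bases after the RefSeq start on GRCm38.p6, 5′ to 3′ on the gene's strand. They lie at chr10:94944796-94945095 on the minus strand, chr15:89180739-89181038 on the minus strand and chr9:57939862-57940161 on the plus strand. Capitals mark matches, on either strand, to the GC box GGGCGG or to the E-box CAGCTG.
Plxnc1: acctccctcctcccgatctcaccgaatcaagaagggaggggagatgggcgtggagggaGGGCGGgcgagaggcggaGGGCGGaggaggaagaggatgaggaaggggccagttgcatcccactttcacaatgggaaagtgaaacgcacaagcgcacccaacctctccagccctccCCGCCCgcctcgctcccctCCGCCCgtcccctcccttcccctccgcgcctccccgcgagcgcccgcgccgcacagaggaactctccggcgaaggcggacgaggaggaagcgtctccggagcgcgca
Plxnb2: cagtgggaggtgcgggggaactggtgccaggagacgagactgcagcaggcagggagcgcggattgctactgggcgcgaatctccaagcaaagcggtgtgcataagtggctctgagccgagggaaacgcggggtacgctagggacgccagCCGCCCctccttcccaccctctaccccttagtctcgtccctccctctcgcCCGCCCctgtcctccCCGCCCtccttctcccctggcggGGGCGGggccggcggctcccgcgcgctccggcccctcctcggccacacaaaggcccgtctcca
Sema7a: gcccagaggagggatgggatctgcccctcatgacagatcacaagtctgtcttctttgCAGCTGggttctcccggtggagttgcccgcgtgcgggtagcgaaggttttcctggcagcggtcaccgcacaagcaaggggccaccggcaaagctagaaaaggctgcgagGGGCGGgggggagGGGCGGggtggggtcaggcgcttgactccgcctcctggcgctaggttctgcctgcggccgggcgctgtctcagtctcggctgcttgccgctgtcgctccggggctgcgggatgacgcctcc

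All 3 were GC-rich. The Plxnc1 promoter was 69.0% G and C with 30 CpG dinucleotides and 4 GC boxes, the Plxnb2 promoter was 70.3% G and C with 27 CpG and 4 GC boxes, and the Sema7a promoter was 67.3% G and C with 23 CpG, 2 GC boxes and 1 CAGCTG. Over the 32851 promoters of the RefSeq table the medians were 52.7% G and C and 7 CpG. Of these promoters 35.7% held GGGCGG and 16.3% held CAGCTG. The MYC-MAX E-box CACGTG (7.15% of all promoters), the TATA box TATAAA (13.6%) and CCAAT (37.4%) had no match in these 3 windows, and the marked motifs did not overlap each other. The table holds another Plxnb2 promoter, which was 61.7% G and C with 15 CpG and 3 GC boxes. Promoters were also matched for Plxna3, Plxnd1, Sema4a, Sema4b, Sema4d and Nrp1, and none was matched for Plxna1. A CACGTG stood in 1 of the 2 promoters of Sema4b and in no other promoter of these genes.

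Plxnc1, which encodes the receptor of SEMA7A, had the lowest log2 change of the plexins. Its counts were 66 and 85 in the JQ1R libraries, against 2049 and 1685 in the JQ1S libraries, or 6.04 and 7.15 CPM in JQ1R against 158 and 164 CPM in JQ1S. Both resistant libraries were low and both sensitive libraries high, with no overlap and with a gap far wider than the spread of either pair. The log2 change, resistant over sensitive, was -4.60 ± 0.09 (SE, n = 2 per line), a level 24.2-fold lower in JQ1R, and it lay between -4.73 and -4.49 with any 1 library left out. This was the third-lowest log2 change of the 11945 genes tested. Its SE, like every SE of a log2 change here, was derived from the test statistic and can be too small for a large change. In bulk RNA, fewer cells with Plxnc1 and less Plxnc1 RNA per cell cannot be told apart. On GRCm38 Plxnc1 lies on the minus strand of chromosome 10 from 94790866 to 94944835. Its annotated exons cover 8349 bases, of which none overlaps an exon on the other strand. On its own strand they overlap those of Gm48718 in part.

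**Figure D1:**
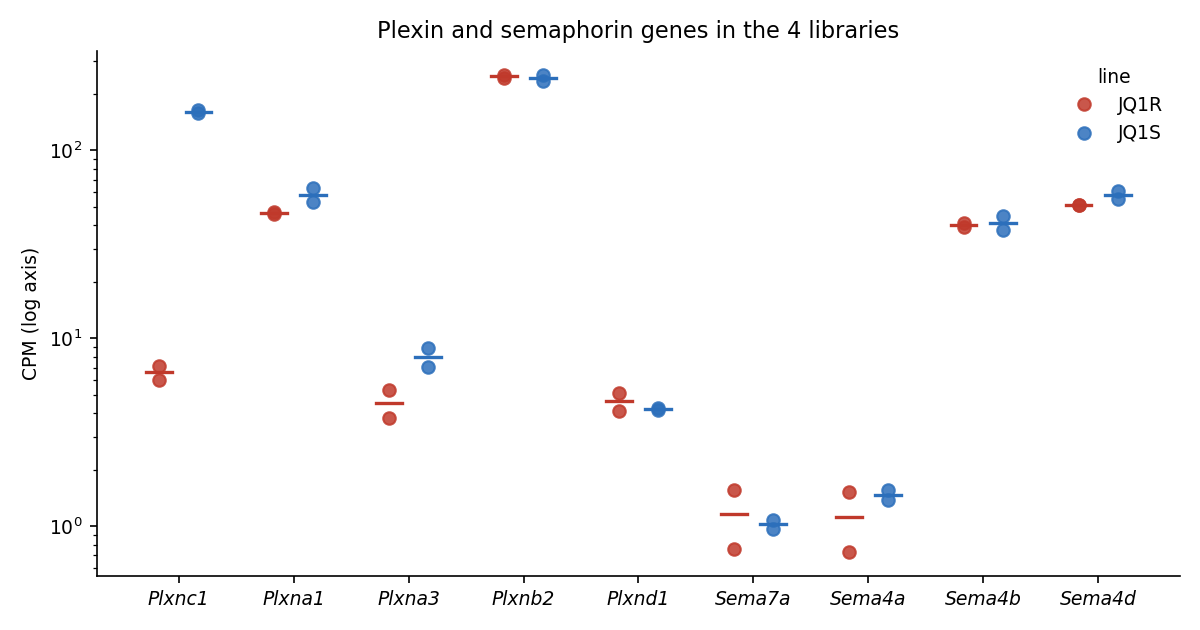
Level of each measured gene in each library, in CPM on a log axis, with JQ1R (red) left of JQ1S (blue); points are libraries and bars are means of 2. Plxnc1 is at 6.04 and 7.15 CPM in JQ1R and at 158 and 164 CPM in JQ1S, while the libraries of the lines overlap for Plxnb2, Plxnd1, Sema7a, Sema4a and Sema4b.

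Plxnb2, which encodes a receptor of transmembrane semaphorins and is known in B cells of the germinal centre, was the most abundant plexin of both lines. It stood at 243 and 253 CPM in JQ1R, against 235 and 253 CPM in JQ1S, and the lines overlapped. Its log2 change was 0.02 ± 0.06 (SE). The ratio of these plexins within a library does not depend on the scaling of the libraries: for every 100 counts of Plxnb2 there were 2.48 and 2.83 counts of Plxnc1 in the JQ1R libraries and 67.3 and 64.7 in the JQ1S libraries.

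Plxna1 encodes a receptor that pairs with neuropilins to bind secreted semaphorins. It stood at 45.9 and 46.9 CPM in JQ1R, against 52.9 and 63.2 CPM in JQ1S. The lines did not overlap, but the sensitive libraries lay further from each other than the lower of them lay from the resistant pair. The log2 change of Plxna1 was -0.31 ± 0.09 (SE), or -0.44 without JQ1S replicate 1 and -0.19 without JQ1S replicate 2. Of its 9054 exonic bases 10.7% overlap Gm26811 on the other strand.

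Plxna3, on the X chromosome, encodes another neuropilin-associated plexin. It had 41 and 63 counts in JQ1R and 91 and 91 counts in JQ1S, or 3.75 and 5.30 CPM in JQ1R against 7.01 and 8.84 CPM in JQ1S. Both resistant libraries were below both sensitive ones. The log2 change was -0.78 ± 0.20 (SE), and it lay between -0.57 without JQ1R replicate 1, where Plxna3 no longer met the rule used for all genes, and -1.06 without JQ1R replicate 2. Plxnd1, which encodes the receptor of SEMA3E, was at 5.13 and 4.12 CPM in JQ1R, against 4.16 and 4.28 CPM in JQ1S. These libraries overlapped, with a log2 change of 0.13 ± 0.20 (SE).

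Summed over the 6 plexins with counts, which include Plxna2, the level was 306 and 319 CPM in JQ1R and 459 and 496 CPM in JQ1S. Without Plxnc1 the sum was 300.1 and 312 CPM in JQ1R and 301 and 332 CPM in JQ1S, and the lines overlapped. Plxnc1 took 1.97% (exact 95% interval 1.53 to 2.50) and 2.24% (1.80 to 2.77) of plexin counts in the JQ1R libraries, against 34.4% (33.2 to 35.7) and 33.0% (31.7 to 34.3) in the JQ1S libraries. Plxnb2 took 79.4% and 79.2% in the JQ1R libraries and 51.2% and 51.1% in the JQ1S libraries. These Clopper-Pearson intervals cover counting error only.

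Sema7a, which encodes the lipid-anchored ligand of PLXNC1 that also binds integrins, was close to the floor in both lines. It had 17 and 9 counts in JQ1R, against 14 and 10 counts in JQ1S, or 1.56 and 0.758 CPM in JQ1R against 1.08 and 0.972 CPM in JQ1S. The resistant libraries spanned the sensitive ones. The log2 change was 0.14 ± 0.43 (SE), and it moved between -0.44 and 0.59 as single libraries were left out. On the CPM scale, the exact Poisson 95% intervals were 0.906 to 2.49 and 0.346 to 1.44 in JQ1R and 0.590 to 1.81 and 0.466 to 1.79 in JQ1S. All 4 overlap each other, and they cover counting error only.

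The transmembrane semaphorins Sema4d and Sema4b were the abundant ligands. Sema4d encodes CD100, which binds plexin B receptors and, on B cells, CD72. It stood at 51.5 and 51.4 CPM in JQ1R, against 55.0 and 60.9 CPM in JQ1S. The lines did not overlap, and the log2 change was -0.17 ± 0.08 (SE), from -0.24 without JQ1S replicate 1 to -0.10 without JQ1S replicate 2. Sema4b stood at 41.0 and 39.2 CPM in JQ1R, against 37.7 and 44.7 CPM in JQ1S, with the resistant pair inside the range of the sensitive pair and a log2 change of -0.03 ± 0.09 (SE).

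Sema4a, which encodes a ligand of plexin B and plexin D receptors, was as scarce as Sema7a. It had 8 and 18 counts in JQ1R, against 18 and 16 counts in JQ1S, or 0.732 and 1.52 CPM in JQ1R against 1.39 and 1.55 CPM in JQ1S. The lines overlapped, with a log2 change of -0.36 ± 0.39 (SE) that lay between -0.99 and 0.05 when a library was left out.

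By the rule used for all genes (edgeR quasi-likelihood test, Benjamini-Hochberg adjusted p below 0.05), 2 of the 9 measured genes, Plxnc1 and Plxna3, were called, both lower in JQ1R, against 3.73% of all 11945 genes called in either direction, 1.52% lower and 2.20% higher in JQ1R. DESeq2 called 1 of the 9, Plxnc1, and edgeR called 4 without JQ1S replicate 1, where it called 11.3% of all genes. The lines did not overlap in 4 of the 9 (Plxnc1, Plxna1, Plxna3 and Sema4d, all lower in JQ1R), against 47.3% of all genes, 23.2% lower and 24.1% higher in JQ1R. The median log2 change of the 9 was -0.17, beside 0.0033 over all tested genes. Since the genes were chosen with this contrast known, nothing is read from these counts. Apart from Plxnc1 and Plxna3, the log2 changes of the 9 were at most 0.36 in size.

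**Figure D2:**
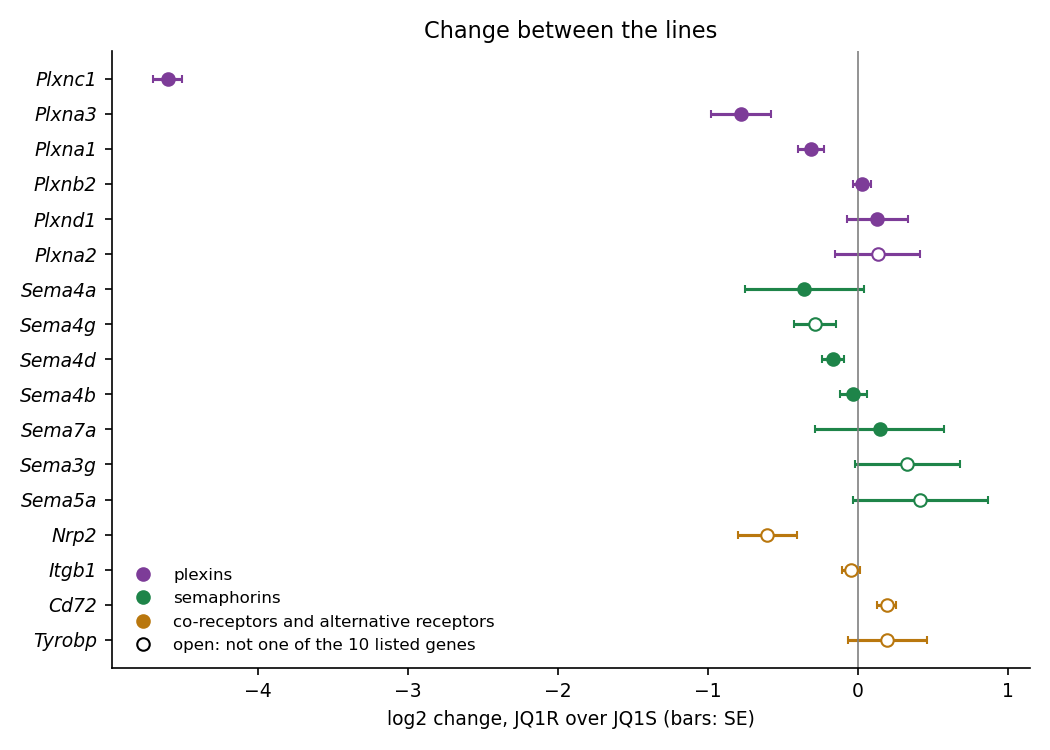
Log2 change of each tested plexin, semaphorin and receptor gene, JQ1R over JQ1S, with its SE as a bar; filled points are among the 10 listed genes and open points are other family members. Plxnc1 stands at -4.60, and the next, Plxna3, at -0.78.

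Levels of different genes were compared per kilobase of annotated exon, over the 13 plexin and semaphorin genes that passed the filter. In JQ1R the order was Plxnb2 (32.1 ± 0.85 CPM per kb, SD, n = 2), Sema4b (7.11 ± 0.22), Sema4d (6.70 ± 0.01), Plxna1 (5.13 ± 0.07), Sema4g (0.951 ± 0.03) and then Plxnc1 (0.790 ± 0.09). In JQ1S it was Plxnb2 (31.6 ± 1.7 CPM per kb), Plxnc1 (19.3 ± 0.49), Sema4d (7.55 ± 0.54), Sema4b (7.30 ± 0.88), Plxna1 (6.41 ± 0.80) and Sema4g (1.16 ± 0.02). Plxnc1 thus held position 6 of 13 in JQ1R and position 2 in JQ1S. Other positions depended on the length used. Per kb of longest transcript, Sema4d (11.5 CPM per kb) came before Sema4b (10.2) in JQ1R. By the same length, Sema4a moved from position 11 to position 9 in JQ1S. In JQ1S, Sema4b did not differ from Sema4d or from Plxna1 beyond the spread of their libraries, while the libraries of Sema4d and Plxna1 did not overlap. In JQ1R the libraries overlapped from Plxnd1 (0.634 ± 0.10) through Plxna3, Sema3g, Sema7a (0.351 ± 0.17) and Sema4a to Plxna2 for each neighbouring pair. Sema5a was lowest in both lines, at 0.0493 ± 0.0004 CPM per kb in JQ1R and 0.0368 ± 0.0005 in JQ1S.

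**Figure D3:**
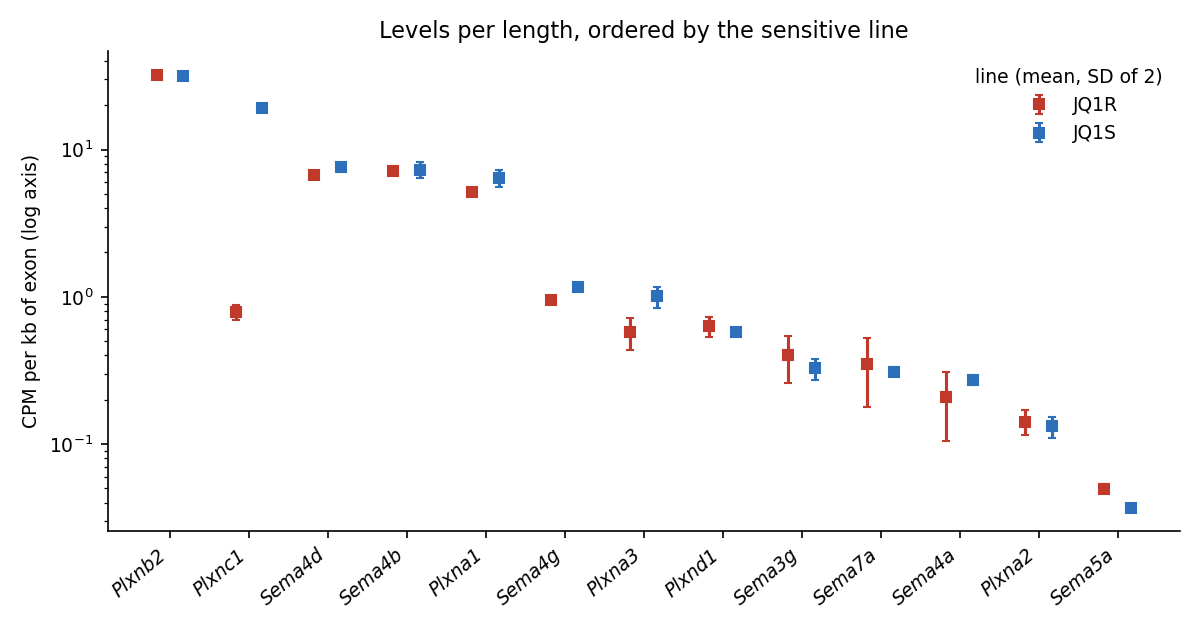
Mean level in CPM per kb of exon (log axis) of the 13 tested plexin and semaphorin genes, in the order of the JQ1S line, with JQ1R (red) left of JQ1S (blue); bars are SDs of 2 libraries. Plxnc1 is at 0.790 in JQ1R and 19.3 in JQ1S, and the next-largest ratio between the lines among the 10 listed genes is that of Plxna3, at 0.575 in JQ1R and 1.01 in JQ1S.

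The rest of the 2 families was tested in the same fit. Of 4 plexins outside the listed genes, 1 was tested: Plxna2, at 2.44 ± 0.48 CPM in JQ1R and 2.27 ± 0.37 CPM in JQ1S (mean ± SD), which gave a log2 change of 0.13 ± 0.28 (SE, edgeR adjusted p = 0.868). Plxna4, Plxnb1 and Plxnb3 were not analysed here. Of 16 other semaphorins 5 had counts and 3 were tested. Sema4g, a transmembrane semaphorin, was at 8.05 and 8.42 CPM in JQ1R, against 10.2 and 9.91 CPM in JQ1S (log2 change -0.29 ± 0.14, edgeR adjusted p = 0.327). Sema3g and Sema5a had log2 changes of 0.33 ± 0.35 and 0.42 ± 0.45 (SE), with edgeR adjusted p-values of 0.689 and 0.704. Sema3f, at 1 to 3 counts, and Sema6b, at 6 or 7 counts in each library, were under the filter, and 11 other semaphorins were not analysed here. Of these 4 tested genes 0 passed in edgeR or DESeq2, and 0 had an unadjusted edgeR p below 0.05. As edgeR called 3.73% of all tested genes and DESeq2 1.62%, nothing is read from a count over 4 genes.

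Among 14 co-receptors and alternative receptors, 4 were tested and 0 passed in edgeR or DESeq2, with 2 at an unadjusted edgeR p below 0.05. EdgeR called 3.73% of all tested genes and DESeq2 1.62%, so with 4 genes nothing is read from this count. Nrp2, a neuropilin, had 47 and 43 counts in JQ1R and 83 and 57 counts in JQ1S. Its level was 4.30 and 3.62 CPM in JQ1R, against 6.40 and 5.54 CPM in JQ1S, and the log2 change was -0.60 ± 0.20 (SE, edgeR adjusted p = 0.113). Cd72, which encodes the B-cell receptor of SEMA4D, was at 197 and 212 CPM in JQ1R, against 172 and 187 CPM in JQ1S (log2 change 0.19 ± 0.06, edgeR adjusted p = 0.118). Without JQ1S replicate 2, Nrp2 (-0.70) and Cd72 (0.25) passed, in a fit that called 9.68% of all genes. Of the exonic bases of Cd72 41.6% overlap Tesk1 on the other strand, and whether the counting used strand is not given. Itgb1, the integrin chain through which SEMA7A signals, was at 160 ± 3.14 CPM in JQ1R and 165 ± 3.80 CPM in JQ1S (log2 change -0.05, edgeR adjusted p = 0.756). Tyrobp, an adaptor that associates with plexin A1 complexes, was at 2.79 ± 0.58 CPM in JQ1R and 2.44 ± 0.15 CPM in JQ1S (log2 change 0.19, edgeR adjusted p = 0.769).

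Among the kinases and cytoskeletal effectors listed for this pathway, Mical3 and Limk1 were lower in JQ1R. A link of either to the plexins was not tested. Mical3 and Limk1 were 2 of the 22 tested kinases and cytoskeletal effectors (9.09%). Of all genes, 1.52% were called lower in JQ1R and 3.73% in either direction. DESeq2 also called 2 of the 22, and 1.62% of all genes. Because the list was chosen with earlier results known, nothing is read from these shares. The median log2 change of the 22 was -0.02, and the 20 that were not called lay between -0.27 and 1.41. Mical3 belongs to the MICAL oxidoreductases, which act on actin and whose founding member binds plexin A. It had 12 and 11 counts in JQ1R, against 103 and 94 counts in JQ1S, or 1.10 and 0.926 CPM in JQ1R against 7.94 and 9.13 CPM in JQ1S. Resistant and sensitive libraries were far apart. Mical3 was 8.33-fold lower in JQ1R, its log2 change was -3.06 ± 0.25 (SE, edgeR adjusted p = 5.71e-07), and it passed in every alternative run, with log2 changes of -3.18 to -2.94 when a library was left out. It lies on chromosome 6 from 120931707 to 121130999, and 1.85% of its exonic bases overlap genes on the other strand.

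Limk1, the kinase that phosphorylates cofilin, was at 21.2 and 20.5 CPM in JQ1R, against 40.6 and 42.6 CPM in JQ1S, with no overlap (log2 change -0.99 ± 0.09, edgeR adjusted p = 2.53e-06). Its paralog Limk2 was at 69.1 ± 0.62 CPM in JQ1R and 69.7 ± 1.59 CPM in JQ1S (log2 change -0.01 ± 0.07, edgeR adjusted p = 0.953), and cofilin itself, Cfl1, was at 1329 ± 20.1 CPM in JQ1R and 1380 ± 10.7 CPM in JQ1S (-0.05 ± 0.05, edgeR adjusted p = 0.641). Mical1 was at 59.5 and 57.1 CPM in JQ1R, against 52.4 and 56.7 CPM in JQ1S (log2 change 0.10 ± 0.07, edgeR adjusted p = 0.535). Among the more abundant members, the log2 changes of the kinase Pak2 (-0.02) and of the cofilin phosphatase Ssh2 (-0.09) had edgeR adjusted p-values of 0.913 and 0.539, and the focal adhesion kinase Ptk2 averaged 91.7 CPM in JQ1R and 91.6 CPM in JQ1S (edgeR adjusted p = 0.992). The exons of Cfl1 overlap Snx32 on the other strand over 16.5% of their bases, and those of Mical1 overlap Smpd2 in part.

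None of 14 tested small GTPases and regulators passed in edgeR or DESeq2, with 3 at an unadjusted edgeR p below 0.05. Of all tested genes, edgeR called 3.73% and DESeq2 1.62%. Rap1b, a GTPase that plexins inactivate, was at 153 ± 2.76 CPM in JQ1R and 158 ± 1.77 CPM in JQ1S (log2 change -0.04 ± 0.06, edgeR adjusted p = 0.778). The other abundant members were Rac1 (log2 change -0.05), Rac2 (0.10) and Rhoa (-0.01), with edgeR adjusted p-values of 0.700, 0.484 and 0.943. Of the exonic bases of Rac1 51.4% overlap Daglb on the other strand. Without JQ1S replicate 1 the log2 changes of Arhgef12 and Rap1a were -0.26 and 0.21, and without JQ1S replicate 2 that of Rac2 was 0.22. The 5 tested proteases that process semaphorins also gave 0 calls in edgeR and DESeq2, with 0 at an unadjusted edgeR p below 0.05. With so few genes in either list, nothing is read from these counts. Adam10 and Adam17, which shed surface proteins, had log2 changes of 0.01 and -0.02, and the convertases Furin and Pcsk7 of -0.09 and -0.01.

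As like families, 40 receptors and ligands of the Eph-ephrin, Slit-Robo and netrin pathways were set beside the plexins and semaphorins. Only 5 of them passed the filter, against 13 of the 29 plexins and semaphorins. Of the 5, 1 rose (20.0%, against 2.20% of all genes that rose): the netrin receptor Unc5a, at 17.7 and 14.7 CPM in JQ1R, against 8.94 and 11.6 CPM in JQ1S (log2 change 0.67 ± 0.15, edgeR adjusted p = 0.0140). It did not pass in DESeq2 (adjusted p = 0.188) or in edgeR without JQ1R replicate 1 (adjusted p = 0.0738). Epha2, Efnb3, Robo2 and Ntn1, each at 2.17 CPM or less on average in either line, had edgeR adjusted p-values of 0.258 or more. Because this list too was chosen with earlier results known, nothing is read from its share.

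**Figure D4:**
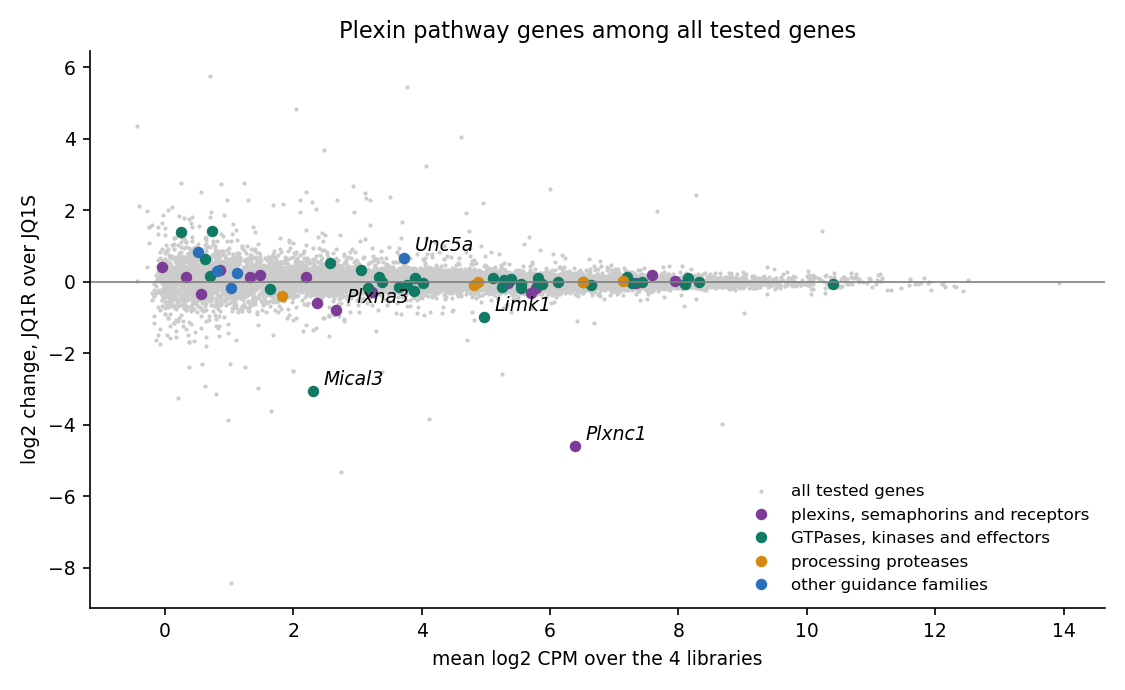
Log2 change, JQ1R over JQ1S, against mean log2 CPM over the 4 libraries for all 11945 tested genes (grey), with the plexin and semaphorin pathway and the other guidance families in colour. Plxnc1 (-4.60), Mical3 (-3.06) and Limk1 (-0.99) are the lowest of the coloured genes, and the abundant pathway genes Cfl1 (-0.05), Rhoa (-0.01) and Plxnb2 (0.02) lie near 0.

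The genes around Plxnc1 on chromosome 10 had log2 changes near 0. Of 64 annotated genes that reach within 1 Mb of it, 19 had counts and 15 were tested, and 0 of the 15 passed in edgeR or DESeq2, with 1 at an unadjusted edgeR p below 0.05, while edgeR called 3.73% of all genes. With so few genes nothing particular to the region is read from this count. Their log2 changes lay between -0.17 (Ndufa12, edgeR adjusted p = 0.234) and 0.25 (Vezt, edgeR adjusted p = 0.338), with a median of 0.04. Cep83, on the opposite strand, ends 12 bases from the 3′ end of Plxnc1. It was at 98.5 ± 1.5 CPM in JQ1R and 93.9 ± 1.17 CPM in JQ1S (log2 change 0.07 ± 0.06, edgeR adjusted p = 0.630). On the other side, 229.9 kb from Plxnc1, Cradd was at 5.29 ± 0.49 CPM in JQ1R and 5.53 ± 0.29 CPM in JQ1S (-0.05 ± 0.18, edgeR adjusted p = 0.921), and Socs2, 440.5 kb away, was at 124 ± 0.95 CPM in JQ1R and 121 ± 4.07 CPM in JQ1S (0.04 ± 0.06, edgeR adjusted p = 0.770). Without JQ1S replicate 1 the log2 change of Ndufa12 was -0.24, and without JQ1S replicate 2 that of Metap2 was -0.19. The remaining tested genes of the region were Usp44, Fgd6, Nr2c1, Tmcc3, Cep83os, Mrpl42, Ube2n, Nudt4 and Eea1.

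**Figure D5:**
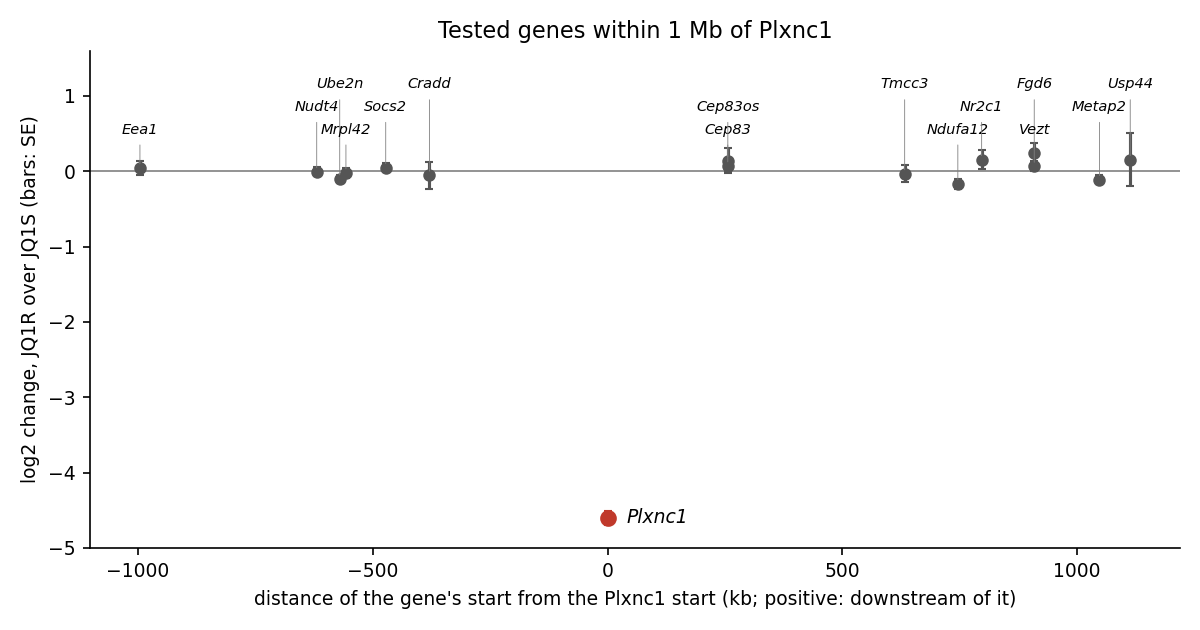
Log2 change, JQ1R over JQ1S, with its SE, of the 15 tested genes within 1 Mb of Plxnc1 and of Plxnc1 itself (red), by the distance in kb of each gene's start from the Plxnc1 start. The neighbours lie between -0.17 and 0.25, and Plxnc1 at -4.60.

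The genes with a pattern most like that of Plxnc1 were taken as the 5 tested genes at the smallest Euclidean distance in log2 CPM centred per gene over the 4 libraries. They were Pvr (distance 0.34), Cd6 (0.45), Iglv1 (0.66), Iglv2 (0.85) and Dock5 (1.45), on chromosomes 7, 19, 16, 16 and 14. With 4 libraries this likeness rests on the difference between the lines and is a description. Pvr, an adhesion receptor of the nectin-like family, had 0 and 0 counts in JQ1R, against 53 and 33 counts in JQ1S, and was at least 27.7-fold lower in JQ1R, taking 3 counts over the resistant pair as the floor. Cd6, a surface receptor known mainly from T cells, had 4 and 3 counts in JQ1R, against 167 and 129 counts in JQ1S. Dock5, an exchange factor for RAC, had 2 and 8 counts in JQ1R, against 77 and 50 counts in JQ1S. The lambda genes Iglv1 and Iglv2 are near-identical in sequence, so how reads divided between them is uncertain.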

How the data were processed

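The values are the authors' deposited counts of reads per Ensembl gene, whole numbers with no normalization, in a single table whose 4 columns match the 4 libraries by name. FastQC, cutadapt 1.7, TopHat and Bowtie2 are listed in the submitters' processing notes, as are HTSeq, limma, GRCm38 and mm10. The sources used here give neither their roles nor a strand setting or annotation release, and reads shared between genes may have been lost or split. By library totals without TMM scaling, a count of 1 corresponds to 0.0766 to 0.0967 CPM. Symbols, positions and exon lengths came from GENCODE M21 on GRCm38, with 16393 identifiers matched and 198 not.

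Counts were fitted with edgeR 4.0.16 in R 4.3.3 (glmQLFit, glmQLFTest, TMM factors, group alone, filterByExpr with a minimum count of 10 and total of 15), with Benjamini-Hochberg adjustment over all 11945 genes. CPM use TMM-scaled library sizes. Each SE of a log2 change is the size of the change divided by the square root of the F statistic of its test. Log2 CPM for distances used a prior count of 2. P-values measure only the spread between libraries, which may be technical. The script was tested on simulated data. Alternatives were DESeq2 1.42.0, other scalings, no filter, a replicate block, each library left out, and longest-transcript length.

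The listed genes and the 7 pathway lists were chosen with earlier results of these data known. Named genes are the 10 listed, in each list those called and up to 4 others of highest mean CPM, the tested neighbours of Plxnc1, and the 5 nearest patterns. Limk2, Mical1, Pak1, Sema3f, Sema6b, Rap1a and Arhgef12 were named with their values seen. A B-cell marker and the sum that holds it are not reported here.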

Additional observations from a re-analysis of the deposited data

How the results depend on the processing

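Under every alternative run the log2 change of Plxnc1 was between -4.73 and -4.49, and its position in the order of levels per length was 6 in JQ1R and 2 in JQ1S with the longest transcript as well. The count of all genes called was 445, or 201 with DESeq2 and 270 to 1381 with 1 library left out. With 1 library left out, an arm holds a lone library that is assumed to vary like the other arm. These fits called 2 to 3 kinases and effectors, 0 to 2 co-receptors, 0 to 2 small GTPases and regulators, 0 to 1 genes of other guidance families and 0 to 1 neighbours of Plxnc1, and DESeq2 called 0 genes of other guidance families. Libraries share only a replicate number: the deviations of same-numbered libraries had a correlation of -0.02 across genes. With the replicate block 595 genes were called, Plxna1 and Pak1 (log2 change 1.36, edgeR adjusted p = 0.0160) among them. Neither was called in the main fit, and Plxna1 was also called with no filter. Without JQ1S replicate 2 the log2 change of Pak1 was 2.79, so its size depended on single libraries. With the block the log2 change of Plxnc1 was -4.60. No alternative turned a called direction. The scalings moved the median of all genes by less than 0.1. Depth limits low genes such as Sema7a and Sema4a, at 8 to 18 counts, and Sema5a, at 7 to 11.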
